A study of Mus musculus with 18 samples.

Results

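The 10 genes described here encode the machinery that licenses and starts DNA replication: Mcm2, Mcm3, Mcm4, Mcm5, Mcm6, Mcm7, Mcm10, Cdc6, Clspn and Rrm2. They were taken by gene symbol from an array table of mouse epidermis, and all 10 were found among the 22180 genes that the table names. Each symbol named a single row, except that Rrm2 had 2 rows, of which the one that varied more was used. Mcm7 also stood on 2 rows shared with other symbols, which were not used.

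Before S phase, the origin recognition complex, Cdc6 and Cdt1 load the ring of Mcm2 to Mcm7 onto replication origins, a step called licensing. At the start of S phase, Mcm10 and other factors turn the loaded rings into active helicases that unwind DNA at the fork. Claspin, encoded by Clspn, travels with the fork and passes stress signals to the checkpoint kinase Chek1, and Rrm2 is the small subunit of ribonucleotide reductase, which makes deoxyribonucleotides. In the epidermis these genes are known as markers of cycling keratinocytes of the basal layer, and many are classic targets of E2F transcription factors.

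The arrays were read from epidermal sheets of female mice of B6;129 background, either AhR-/- (here KO) or AhR+/+ littermates (here WT), with no age stated. AhR is the aryl hydrocarbon receptor, a ligand-activated transcription factor, and the null line named in the labels is B6.129-AhRtm1Bra/J, a deletion in every cell of the body. Shaved back skin was untouched (0 h) or was taken 6 h or 24 h after tape stripping, the removal of outer cornified cells with sticky film. The groups were KO and WT at 0 h, KO and WT at 6 h, and KO and WT at 24 h, with 3 arrays each and 18 in all. The titles name separate samples and the design speaks of littermates, so p-values here measure the spread between these samples. In bulk tissue, fewer cells of a type and less RNA per cell cannot be told apart.

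Promoter windows are shown because several of the 10 genes varied together across the arrays. RefSeq windows of build GRCm38.p6, from 250 bases before to 50 bases from each start site, were at hand for 9 of the 10 genes, Mcm4 being the exception, and Mcm7 had 2. An E2F site was searched as TTTCCCGC, TTTCGCGC, TTTGGCGC or TTTGCCGC on both strands. Of the 9 genes, 6 held at least 1 match (Mcm3, Mcm5, Mcm6, Mcm7, Cdc6 and Clspn), while 2.26% of all 32851 windows of the same length did. The letters CCAAT, the core of the site bound by NF-Y, lay in the windows of 8 of 9 genes and in 37.4% of all windows. GCGTG, the core letters of the site bound by AhR, lay in the windows of 4 of 9 genes (Mcm2, Mcm6, Cdc6 and Rrm2) and in 32.4% of all windows. A match describes the letters of the window and is not a measured binding site.

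The 5 windows printed here belong to the genes whose response to tape stripping differed between genotypes after 6 h. Each is given 5′ to 3′ on the strand of its gene, with E2F matches on either strand in capitals. Mcm2 lies at chr6:88898731-88899030 on the minus strand and holds no E2F match. Mcm3 lies at chr1:20820263-20820562 on the minus strand with 2 matches, both after the start site. The window of Mcm5, chr8:75109259-75109558 on the plus strand, holds 2 matches that overlap each other. That of Mcm6, chr1:128359656-128359955 on the minus strand, holds 3, of which 2 overlap. Clspn, at chr4:126556730-126557029 on the plus strand, holds 1 match after the start site.
Mcm2: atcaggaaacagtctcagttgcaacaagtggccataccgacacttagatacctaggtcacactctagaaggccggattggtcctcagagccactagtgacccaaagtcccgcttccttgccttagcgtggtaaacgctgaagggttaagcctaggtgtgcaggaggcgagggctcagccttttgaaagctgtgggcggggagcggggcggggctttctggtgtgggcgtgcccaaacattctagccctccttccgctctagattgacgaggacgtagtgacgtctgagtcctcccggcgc
Mcm3: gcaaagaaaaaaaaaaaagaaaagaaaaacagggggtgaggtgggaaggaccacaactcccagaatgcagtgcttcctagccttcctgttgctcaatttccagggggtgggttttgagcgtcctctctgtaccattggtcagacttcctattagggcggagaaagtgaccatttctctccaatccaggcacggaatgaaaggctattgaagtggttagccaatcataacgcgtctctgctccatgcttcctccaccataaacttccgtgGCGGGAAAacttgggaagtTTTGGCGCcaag
Mcm5: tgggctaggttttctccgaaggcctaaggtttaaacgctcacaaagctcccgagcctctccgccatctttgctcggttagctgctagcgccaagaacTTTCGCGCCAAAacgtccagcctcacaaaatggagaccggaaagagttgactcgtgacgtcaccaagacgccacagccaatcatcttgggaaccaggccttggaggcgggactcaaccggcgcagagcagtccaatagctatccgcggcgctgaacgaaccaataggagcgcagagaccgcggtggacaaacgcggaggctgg
Mcm6: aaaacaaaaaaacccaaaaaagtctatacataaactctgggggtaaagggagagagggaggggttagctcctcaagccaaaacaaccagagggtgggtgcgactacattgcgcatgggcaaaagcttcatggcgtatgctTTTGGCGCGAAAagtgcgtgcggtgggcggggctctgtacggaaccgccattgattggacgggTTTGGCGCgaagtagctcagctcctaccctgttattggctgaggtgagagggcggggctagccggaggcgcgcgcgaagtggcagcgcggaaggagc
Clspn: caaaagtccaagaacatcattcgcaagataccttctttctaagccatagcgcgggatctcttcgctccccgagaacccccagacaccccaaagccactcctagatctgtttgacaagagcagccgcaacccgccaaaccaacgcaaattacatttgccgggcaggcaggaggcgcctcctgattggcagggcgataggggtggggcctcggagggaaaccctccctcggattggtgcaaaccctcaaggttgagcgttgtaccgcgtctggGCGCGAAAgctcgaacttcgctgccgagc

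The values are logarithms, taken to be of base 2, from which each row's median over the 18 arrays was removed. They show differences between arrays and no absolute level, so that levels of different genes cannot be compared, and neither the presence of the epidermis markers nor signal over background could be checked. If the log were natural, every difference below would be larger by the same factor. The threshold for a call was an adjusted p under 0.05 in limma, with Benjamini-Hochberg adjustment over 23521 rows. The row of Ahr, whose probes are not placed against the deleted part in the sources used here, had all its KO arrays below its WT arrays at each time. It passed at 6 h (-1.11, adjusted p = 0.00549, limma) and not at 0 h (-0.32, adjusted p = 0.556) or 24 h (-0.70, adjusted p = 0.22).

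The group that stood highest was KO at 24 h, and the lowest groups were WT at 6 h and KO at 0 h. The mean over the 10 genes was -0.28 ± 0.11 (SD, n = 3) in KO and 0.11 ± 0.05 in WT at 0 h. At 6 h it was -0.03 ± 0.15 in KO and -0.34 ± 0.03 in WT. At 24 h it was 0.40 ± 0.09 in KO and 0.07 ± 0.19 in WT. The KO arrays thus lay below the WT arrays at 0 h and above them at 6 h and 24 h, and at each time the array means of the genotypes did not overlap. These means are a description of the chosen genes and carry no test.

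**Figure D1:**
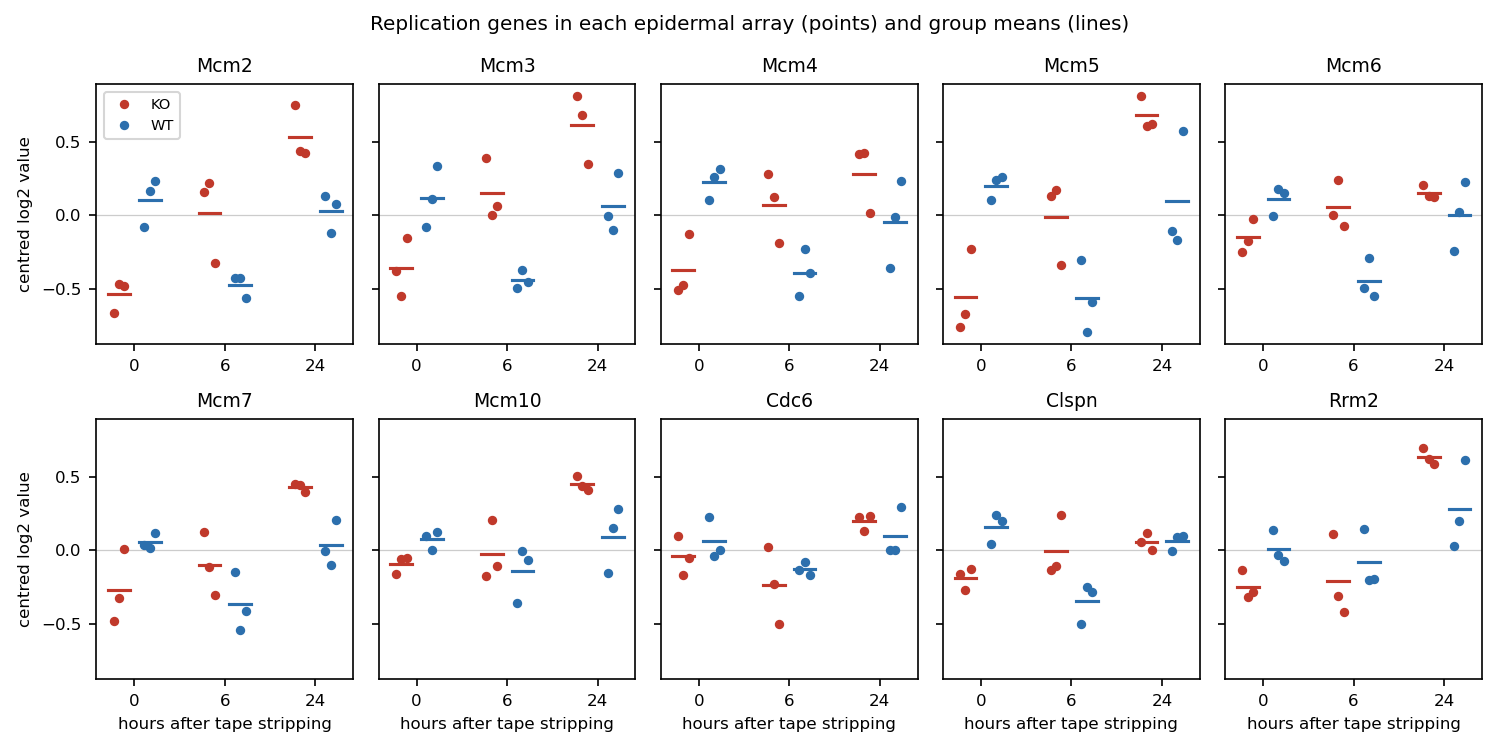
Centred log2 value of each gene (vertical axis, 1 point per array) against hours after tape stripping (horizontal axis), KO left of WT at each time, with a line at each group's mean of 3 arrays. For Mcm2 the KO points lie between -0.66 and -0.46 at 0 h and between 0.42 and 0.75 at 24 h, while the WT points lie lowest at 6 h, between -0.56 and -0.43.

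In untouched skin the helicase genes read lower in KO than in WT, but none of the 10 genes passed. Mcm2 stood at -0.66, -0.46 and -0.48 in KO arrays, against -0.08, 0.16 and 0.24 in WT arrays. Mcm5 stood at -0.76, -0.67 and -0.23 in KO, against 0.11, 0.24 and 0.26 in WT. Mcm4 had -0.50, -0.47 and -0.13 in KO and 0.10, 0.26 and 0.31 in WT. In all 3 genes each KO array lay below each WT array, which was so for 9 of the 10 genes (all but Cdc6), where 7.71% of all rows had their KO arrays below their WT arrays. The differences were -0.64 for Mcm2 (SE 0.133, adjusted p = 0.107, limma), -0.75 for Mcm5 (SE 0.196, adjusted p = 0.219) and -0.59 for Mcm4 (SE 0.163, adjusted p = 0.245). They were -0.48 for Mcm3, -0.35 for Clspn, -0.32 for Mcm7 and -0.26 for Mcm6 and Rrm2, and the smallest were Mcm10 at -0.17 and Cdc6 at -0.10. All 10 differences lay below 0, with a median of -0.33 beside -0.003 over all rows. limma called 0 of 10 (0.0978% of all rows passed), and 7 of 10 had an unadjusted p under 0.05, as did 8.48% of all rows. With array weights 2 of the 10 passed. In the same arrays 4 of 9 epidermal T cell markers passed as lower in KO, and their list means ran from -0.94 to -0.23 in KO and from 0.36 to 0.77 in WT. Of 7 markers of spinous keratinocytes, the layer above the basal one, Krt1 passed as lower in KO (-0.67, adjusted p = 0.0212, limma), a call made in 9 of 15 alternatives, and the list means were 0.04 to 0.06 in KO and -0.03 to 0.13 in WT. The 7 measured markers of basal keratinocytes, the layer in which epidermal cells divide, had list means from -0.12 to 0.03 in KO and from 0.08 to 0.19 in WT, with 0 passing. The 6 measured Langerhans cell markers had list means from -0.68 to 0.00 in KO and from -0.12 to 0.37 in WT, with 0 passing. The part of these cells in the differences was not tested.

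At 6 h after tape stripping the order was turned, with most helicase genes reading higher in KO. Mcm6 was the 1 gene of 10 that passed. It stood at 0.01, 0.24 and -0.07 in KO arrays, against -0.49, -0.29 and -0.55 in WT arrays, without overlap. The difference was 0.50 (SE 0.111, 95% interval 0.26 to 0.74), or 1.42-fold, with an adjusted p = 0.0339 in limma. Of all rows, 2.18% passed, and 0.366% passed as higher in KO. Mcm3 missed the threshold with 0.39, 0.00 and 0.06 in KO and -0.49, -0.37 and -0.45 in WT (difference 0.59, adjusted p = 0.0513, limma). Mcm2 (0.49), Mcm5 (0.55), Mcm4 (0.46) and Clspn (0.34) had adjusted p of 0.071, 0.164, 0.162 and 0.0755. The KO arrays lay wholly above the WT arrays for 5 genes (Mcm2, Mcm3, Mcm4, Mcm6 and Clspn), where 7.42% of all rows did, and 6 genes had an unadjusted p under 0.05, as did 15.8% of all rows. Cdc6 and Rrm2 lay slightly lower in KO, with differences of -0.11 and -0.12 whose 95% intervals ran from -0.36 to 0.14 and from -0.44 to 0.20. The call on Mcm6 was lost when KO replicate 2 or 3 or WT replicate 2 or 3 was left out and when only the 6 h groups were fitted, its adjusted p lying between 0.0212 and 0.163 over 15 alternatives. In the 6 h arrays the 7 spinous markers had list means from -0.28 to -0.16 in KO and from 0.01 to 0.17 in WT. Calml3 (-0.53) and Sbsn (-0.25) among them passed as lower in KO, as did 1 of 7 basal markers, Lamb3 (-0.68), and 5 of 9 T cell markers. The T cell list means were -0.41 to -0.13 in KO and 0.54 to 0.68 in WT, and the part of any of these cells in the result for Mcm6 was not tested.

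At 24 h none of the 10 genes passed between genotypes, although 9 lay above 0 in KO relative to WT, with a median of 0.36. Mcm3 stood at 0.81, 0.68 and 0.35 in KO arrays, against -0.00, -0.10 and 0.28 in WT arrays. The difference was 0.55 (SE 0.147, adjusted p = 0.447, limma), beside 0.51 for Mcm2 and 0.58 for Mcm5. WT replicate 3 was the highest of its group for all genes but Mcm2, for instance 0.58 for Mcm5 where the other WT arrays had -0.11 and -0.17. KO and WT arrays did not overlap for Mcm2, Mcm3, Mcm5, Mcm7 and Mcm10, all higher in KO, which 6.36% of all rows were. limma called 0 of 10 (0.017% of all rows passed), with 6 at an unadjusted p under 0.05, as had 6.71% of all rows. Clspn differed by -0.002, with a 95% interval of -0.20 to 0.20. The 7 neutrophil and monocyte markers had list means from 0.16 to 0.49 in KO and from -0.06 to 0.02 in WT, with 0 passing, and the T cell list means were -0.81 to -0.67 in KO and 0.03 to 0.49 in WT, with 1 of 9 passing. WT replicate 2 had a hair follicle list mean of 0.81, where the highest KO array at 24 h had 0.11. Their part in the 24 h values was not tested. Of the lists for dermal fibroblasts, endothelium, skeletal muscle and melanocytes, 0 markers passed between KO and WT at any time.

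**Figure D2:**
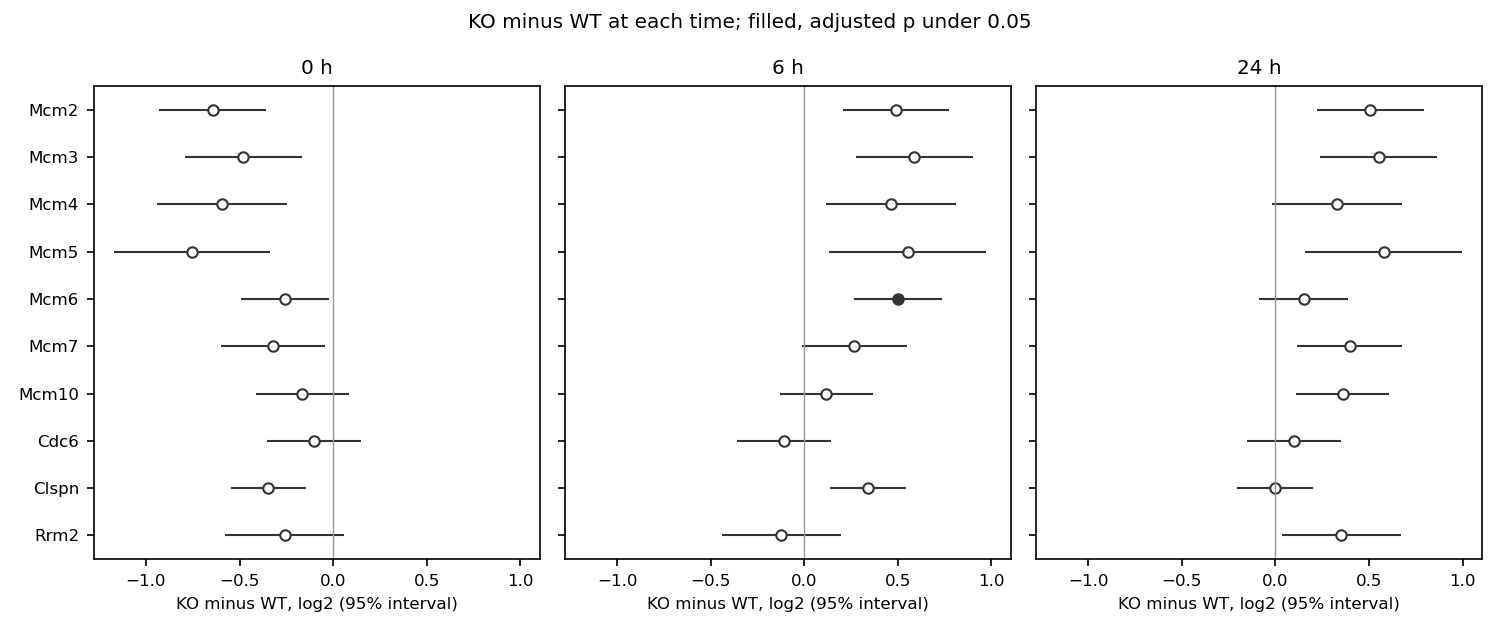
KO minus WT difference of each gene in log2 units (horizontal axis) at 0, 6 and 24 h, with 95% intervals from the limma fit; a filled point has an adjusted p under 0.05. Every point lies left of 0 at 0 h, and Mcm6 at 6 h (0.50) is the 1 filled point.

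Within KO epidermis most of the genes were higher after 1 day. By 24 h, 7 of 10 had risen against 0 h (Mcm2, Mcm3, Mcm4, Mcm5, Mcm7, Mcm10 and Rrm2), where 3.09% of all rows passed as higher and 9.56% passed in either direction. Mcm5 stood at 0.81, 0.61 and 0.62 in the 24 h arrays, against -0.76, -0.67 and -0.23 at 0 h, a rise of 1.23 (SE 0.196, 2.35-fold, adjusted p = 0.00251, limma). Mcm2 stood at 0.75, 0.44 and 0.42 in the 24 h arrays, against -0.66, -0.46 and -0.48 at 0 h, a rise of 1.07 (SE 0.133, 2.10-fold, adjusted p = 0.00135). Mcm3 rose by 0.97 (adjusted p = 0.00207), Mcm7 by 0.70, Mcm4 by 0.65 and Mcm10, the helicase activator, by 0.54. Mcm6 (0.30), Cdc6 (0.24) and Clspn (0.24) did not pass, with adjusted p of 0.105, 0.248 and 0.125. The 24 h arrays lay wholly above the 0 h arrays in all 10 genes, where 15.8% of all rows did. The median of the 10 genes was 0.67, beside 0.02 over all rows. Leaving out any 1 array kept 6 or 7 of the calls, and the gene lost was Mcm4, whose adjusted p reached 0.0845 without KO replicate 1 at 24 h and also missed without KO replicate 2 at 24 h or KO replicate 1 or 2 at 0 h. In the same arrays, among 7 basal markers Krt14 passed as higher at 24 h (0.56) and Dst (-0.61) and Trp63 (-0.37) as lower. Of 7 spinous markers, Krt1 passed as higher (0.34) and Dsg1a (-0.67) and Dsc1 (-0.57) as lower. The spinous list means were -0.21 to -0.07 at 24 h and 0.04 to 0.06 at 0 h, without overlap, while the basal ones, -0.15 to -0.02 and -0.12 to 0.03, overlapped. S100a9 (0.84) passed as higher among 7 neutrophil and monocyte markers, whose list means were 0.16 to 0.49 at 24 h and -0.14 to 0.03 at 0 h. Lower calls were also made on 2 of 19 hair follicle markers (Gata3 and Lgr5), 1 of 9 T cell markers (Ptprc) and 1 of 6 melanocyte markers (Mitf), and 0 of 6 Langerhans cell markers passed. The part of any of these cells in the 7 calls was not tested.

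Different genes passed in the earlier and the later step in KO. This does not show that a gene's 2 steps differed, which was not tested. Between 0 h and 6 h in KO, Mcm2 was the 1 gene that passed (0.55, SE 0.133, adjusted p = 0.0298, limma), where 4.98% of all rows passed and 1.57% as higher. Its call held without KO replicate 3 at 6 h and was lost without any other single array of the comparison. Spinous list means were -0.28 to -0.16 at 6 h and 0.04 to 0.06 at 0 h in these arrays, with Dsc1 (-0.64) and Calml3 (-0.56) passing as lower. Dst of the basal markers, Gata3, Lhx2 and Lgr5 of the hair follicle markers and Mitf of the melanocyte markers also passed as lower, and Thy1 (1.17) of the T cell markers as higher. Their part in the call on Mcm2 was not tested. Mcm3 (0.51), Mcm5 (0.54) and Mcm4 (0.44) had adjusted p of 0.0596, 0.125 and 0.132, while Rrm2 (0.04), Mcm10 (0.06) and Cdc6 (-0.20) lay near 0 or below it. Between 6 h and 24 h, Rrm2 was the 1 gene that passed, with 0.70, 0.62 and 0.59 at 24 h, against 0.11, -0.31 and -0.42 at 6 h. Its rise was 0.84 (SE 0.149, 1.79-fold, adjusted p = 0.0183, limma), where 1.24% of all rows passed and 0.625% as higher. Of the cell type markers, Calml3 of the spinous list also passed in this step, higher at 24 h by 0.47, and its part in the call was not tested. Mcm2 differed by 0.52 in this later step (adjusted p = 0.0673, limma), beside 0.55 in the earlier one, and Mcm5 by 0.69 (adjusted p = 0.0972). Mcm3 (0.46), Mcm4 (0.21), Mcm6 (0.10) and Clspn (0.06) did not pass either. Cdc6 (0.43), Mcm10 (0.48) and Mcm7 (0.53) had adjusted p of 0.0812, 0.0568 and 0.0593 in the later step. Of these, Cdc6 stood at 0.23, 0.13 and 0.23 at 24 h, against 0.02, -0.23 and -0.50 at 6 h, without overlap. The call on Rrm2 was lost without KO replicate 2 or 3 at 6 h, without KO replicate 1 or 3 at 24 h, and with the number class as a block, and 4 genes passed without KO replicate 1 at 6 h. The second row that names Rrm2 ranged from -0.05 to 0.21 over all arrays. In KO it differed by 0.009 between 24 h and 6 h (adjusted p = 0.982, limma) and by 0.09 between 24 h and 0 h (adjusted p = 0.43). Averaged over genotypes it differed by 0.02 between 24 h and 6 h (adjusted p = 0.912) and by 0.08 between 24 h and 0 h (adjusted p = 0.26).

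In WT epidermis the 10 genes read lower at 6 h than before and after it, but none passed between any of the times. Between 6 h and 0 h all 10 differences lay below 0, with a median of -0.53 beside 0.007 over all rows. Mcm5 stood at -0.30, -0.79 and -0.59 at 6 h, against 0.11, 0.24 and 0.26 at 0 h, a difference of -0.76 (SE 0.196). Mcm6 stood at -0.49, -0.29 and -0.55 at 6 h, against -0.01, 0.18 and 0.16 at 0 h, a difference of -0.55 (SE 0.111, adjusted p = 0.952, limma). Clspn stood at -0.50, -0.25 and -0.28 at 6 h, against 0.04, 0.24 and 0.20 at 0 h, a difference of -0.50 (SE 0.0942, adjusted p = 0.883). The 6 h arrays lay wholly below the 0 h arrays for 9 genes (all but Rrm2), where 3.79% of all rows did. limma called 0 of 10 and 0% of all rows, while 7 of 10 had an unadjusted p under 0.05, as had 4.62% of all rows.

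From 6 h to 24 h in WT all 10 differences lay above 0, with a median of 0.40. Mcm5 differed by 0.66 (adjusted p = 0.45, limma), Mcm3 and Mcm2 by 0.50 and Clspn by 0.40, and again 0 of 10 genes and 0% of all rows passed, with 7 of 10 at an unadjusted p under 0.05 (7.79% of all rows). The arrays of these times did not overlap for 7 genes, where 6.46% of all rows were wholly higher at 24 h. Between 24 h and 0 h in WT the differences ran from -0.27 (Mcm4) to 0.27 (Rrm2) with a median of -0.07, and 0 of 10 passed (0.0298% of all rows) or had an unadjusted p under 0.05 (12.5% of all rows).

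**Figure D3:**
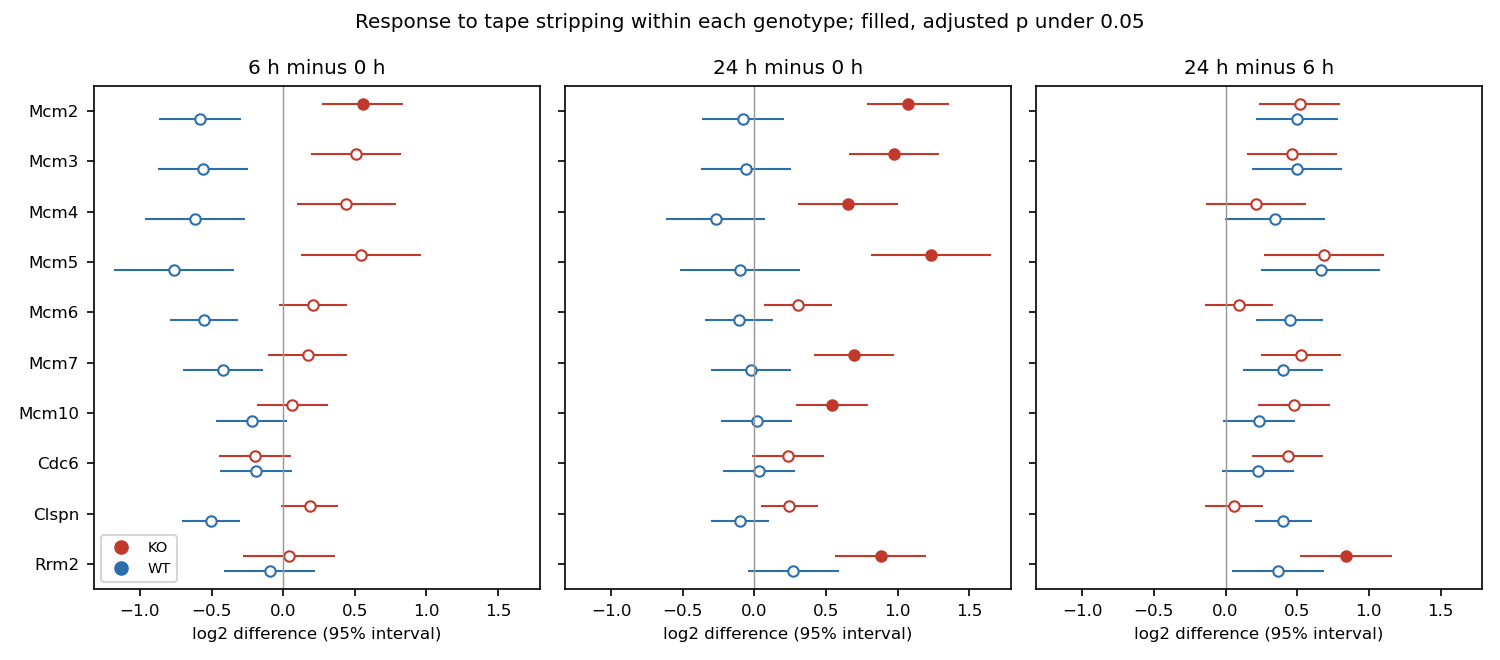
Difference of each gene between times in log2 units (horizontal axis) within KO and within WT, with 95% intervals from the limma fit; filled points have an adjusted p under 0.05. In the panel of 6 h minus 0 h Mcm2 to Mcm7 lie right of 0 in KO and left of 0 in WT, in the middle panel of 24 h minus 0 h 7 KO points are filled, and in the panel of 24 h minus 6 h all points lie right of 0.

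For 9 of the 10 genes (all but Cdc6) the 6 h response lay above 0 in KO and below 0 in WT, and the difference between the responses was tested as an interaction. It passed for Mcm2, Mcm3, Mcm5, Mcm6 and Clspn, all higher in KO, which is 5 of 10 genes where 0.731% of all rows passed and 0.234% as higher. The difference between the responses was 1.13 for Mcm2 (SE 0.189, 95% interval 0.73 to 1.54, adjusted p = 0.0241, limma). It was 1.30 for Mcm5 (adjusted p = 0.0471), 1.07 for Mcm3 (adjusted p = 0.0397), 0.76 for Mcm6 (adjusted p = 0.0454) and 0.69 for Clspn (adjusted p = 0.0397). Mcm4 had 1.06 with an adjusted p = 0.051, and Mcm7 0.59 with an adjusted p = 0.153. For Mcm10, Rrm2 and Cdc6 the values were 0.28, 0.13 and -0.005, the last with a 95% interval of -0.36 to 0.35. The 0 h arrays enter both this test and the comparison of untouched skin, so the values there and here are not separate evidence.

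These 5 calls lie close to the threshold and depended on single arrays. The count fell to 0 without KO replicate 1 or 2 at 0 h, without WT replicate 2 or 3 at 0 h, or without WT replicate 2 or 3 at 6 h. It was 2 without KO replicate 3 at 0 h or KO replicate 1 at 6 h, 3 without KO replicate 2 at 6 h and 1 without KO replicate 3 at 6 h. Of 7 spinous markers, 1 also passed this test, Calml3 at -0.73 (adjusted p = 0.0181, limma), while 0 of 7 basal, 0 of 9 T cell and 0 of 6 Langerhans cell markers did. All 6 Langerhans cell markers lay above 0 in this difference, with a median of 0.54, as did 8 of 9 T cell markers, with a median of 0.32. The Langerhans list means were 0.08 to 0.23 in KO and -0.06 to 0.21 in WT at 6 h, and the part of any of these markers' cells in the 5 calls was not tested. All 5 differences kept their sign in each of 21 alternatives, and Mcm2 passed in 15 of them, Clspn in 10, Mcm3 in 9, Mcm6 in 6 and Mcm5 in 5. Between 24 h and 0 h the responses differed by 1.15 for Mcm2 (adjusted p = 0.102, limma) and by a median of 0.66, and 0 of 10 passed (0% of all rows), with 9 of 10 at an unadjusted p under 0.05 (9.2% of all rows). Between 24 h and 6 h the median difference of the responses was 0.02, with 0 of 10 passing (0% of all rows) and 3 at an unadjusted p under 0.05 (6.7% of all rows).

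Averaged over genotypes, Mcm2, Mcm3, Mcm5, Mcm7, Mcm10 and Rrm2 were higher at 24 h than at 0 h, 6 of 10 genes where 10.8% of all rows passed and 3.48% as higher. With any 1 array left out, 4 or 5 of the 10 passed. Mcm2, Mcm3, Mcm5 and Rrm2 held in 12 of 12 such fits, Mcm7 in 4 and Mcm10 in 1. Within WT this difference was -0.08, -0.06, -0.10, -0.02 and 0.01 for Mcm2, Mcm3, Mcm5, Mcm7 and Mcm10. Within KO it was 1.07, 0.97, 1.23, 0.70 and 0.54 for the same genes. Rrm2 had 0.27 in WT and 0.88 in KO. For the genes other than Rrm2 the WT values thus lay between -0.10 and 0.01. The difference between the genotypes in this rise was tested and passed for 0 of 10 genes (0% of all rows). The same 6 were higher at 24 h than at 6 h, where 2.09% of all rows passed and 0.787% as higher, with Rrm2 at 0.60 and Mcm5 at 0.68. There 0 passed with the number class as a block, 2 without WT replicate 2 at 6 h, and 3 without KO replicate 3 at 6 h, KO replicate 1 at 24 h or WT replicate 3 at 24 h. Markers that passed as lower at 24 h than at 0 h were Dst and Itga6 of the basal list, Dsg1a and Dsc1 of the spinous list, Ptprc and Trat1 of the T cell list and Mitf of the melanocyte list. S100a9 of the neutrophil and monocyte list and Tnnt3 of the skeletal muscle list passed as higher. Between 24 h and 6 h, Calml3 passed as higher and Ptprc and Trat1 as lower, and the part of these cells in either set of calls was not tested. Between 6 h and 0 h, 0 of 10 passed (0% of all rows), with 3 at an unadjusted p under 0.05 (14.2% of all rows).

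The 10 genes did not all share one profile. Across the 18 arrays, which share the group structure, Pearson's r of a gene with the mean of the other 9 was 0.958 for Mcm5, 0.925 for Mcm3, 0.921 for Mcm7 and 0.914 for Mcm2. It was lowest for Cdc6, the loader, at 0.597 and for Clspn at 0.601. Over the 45 pairs r ran from 0.189 (Cdc6 with Clspn) to 0.956 with a median of 0.717. After the group means were removed the range was -0.482 to 0.871, and the median was 0.387.

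Outside the 10, the rows most like their mean over the 18 arrays were those of Chaf1b (r = 0.929), Gins1 (0.888), Pola2 (0.873), Rfc2 (0.87), Dnmt1 (0.87), Tufm (0.857), Cdt1 (0.856) and Car12 (0.853). Chaf1b is a subunit of the histone chaperone at the fork, Gins1 part of the active helicase and Pola2 a subunit of DNA polymerase alpha. Rfc2 is a subunit of the clamp loader and Dnmt1 the maintenance DNA methyltransferase. Tufm is a mitochondrial elongation factor and Car12 a carbonic anhydrase. Because likeness was measured over the same arrays, these rows share the profile of the 10 genes by choice, and their differences between groups are not separate evidence. Chaf1b, Gins1, Pola2, Rfc2, Dnmt1 and Cdt1 are also members of the gene lists below and are counted there.

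Neighbouring gene groups were read beside the 10 genes from lists drawn up for this purpose. For the comparison of 24 h with 0 h in KO, in which they are given first, 3.09% of all rows passed as higher and 6.47% as lower. Of 32 measured genes that act at the fork, 12 rose and 0 fell between 24 h and 0 h in KO, with a median of 0.31 beside 0.02 over all rows, among them Rfc5 (0.66, adjusted p = 0.00157, limma), Pola2 (0.62) and Pold2, a subunit of polymerase delta (0.97). Of 13 genes of helicase activation (median 0.14) 3 rose, Gins2 by 0.71, Gins1 by 0.65 and Cdc45 by 0.49. Of 9 genes of nucleotide supply (median 0.36) 3 rose, thymidine kinase Tk1 by 1.08, Dctpp1 by 0.66 and Dut by 0.48. Among 9 origin and licensing genes (median -0.07) Cdt1, the partner of Cdc6 in loading, Gmnn, which encodes the inhibitor of Cdt1, and Orc1 rose by 0.61, 0.44 and 0.35, while Orc4 and Orc5 fell by 0.73 and 0.47. Of 10 checkpoint genes (median -0.07) Rad17, Atr and Atm fell by 0.81, 0.59 and 0.53. None of the 4 other genes named for the MCM family (Mcm8, Mcm9, Mcmdc2 and Mcm3ap) passed, and their median was -0.16. Leaving out at least 1 array ended the calls on Cdc45, Gins1, Dctpp1, Cdt1, Orc1, Orc4, Orc5, Atr and Atm, with an adjusted p of up to 0.113, 0.0671, 0.141, 0.0607, 0.106, 0.132, 0.113, 0.0622 and 0.123 over the alternatives. Of the 12 fork calls, those on Rfc3, Uhrf1, Prim2, Rpa2 and Fen1 also ended. They held in 0, 1, 3, 3 and 5 of 6 such fits, with an adjusted p of up to 0.196, 0.138, 0.0871, 0.0787 and 0.0576.

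In the difference between the 6 h responses, the fork list had 31 of 32 genes above 0 with a median of 0.33, beside 0.01 over all rows, and 0 passed. It lay lower in KO than in WT for 30 of 32 genes at 0 h, and higher for 27 at 6 h and 23 at 24 h, with Pole3 (0.43, adjusted p = 0.0435, limma) the 1 call, made at 6 h. Dut, which removes dUTP from the nucleotide pool, differed by 0.76 between the 6 h responses (adjusted p = 0.0373, limma) and was 0.53 higher in KO at 6 h. Its values at 6 h averaged 0.34 ± 0.20 in KO and -0.19 ± 0.05 in WT (SD, n = 3 each). The calls on Pole3 and Dut between KO and WT at 6 h were lost, as that of Mcm6 was, when KO replicate 2 or 3 or WT replicate 2 or 3 was left out.

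Of 32 regulators of entry into S phase, Cdkn1b and Rbl2 were the genes whose 6 h responses differed, both lower in KO. Cdkn1b encodes the kinase inhibitor p27, and Rbl2 the pocket protein p130, both known as brakes on S phase entry. Cdkn1b averaged -0.56 ± 0.13 in KO and 0.15 ± 0.08 in WT at 6 h (SD, n = 3 each), and Rbl2 averaged -0.32 ± 0.13 in KO and 0.20 ± 0.03 in WT. The differences between the responses were -1.06 for Cdkn1b (adjusted p = 0.0386, limma) and -0.76 for Rbl2 (adjusted p = 0.033). The calls on both, and that on the response of Dut, were lost without KO replicate 2 or 3 at 0 h, WT replicate 2 or 3 at 0 h, KO replicate 3 at 6 h, or WT replicate 2 or 3 at 6 h. Rbl2 and Dut also missed without KO replicate 1 at 0 h, and Rbl2 and Cdkn1b without KO replicate 2 at 6 h. Within KO, Cdkn1b fell to -0.56 ± 0.13 at 6 h, against 0.44 ± 0.28 at 0 h (adjusted p = 0.0059, limma), and Rbl2 fell by 0.61, calls that held in 15 of 15 alternatives. Averaged over genotypes, both also passed as lower at 24 h than at 0 h, where 10.8% of all rows passed in either direction. E2f7, a repressor that is itself an E2F target, was 0.40 higher in KO than in WT at 6 h (adjusted p = 0.0485, limma). This call was made in 2 of 15 alternatives, among them natural logs, which cannot change a call. Between 24 h and 0 h in KO, E2f1, E2f7, E2f8, Ccnd1, Cdk4 and Mycn passed as higher and Tfdp2, Rb1, Rbl2 and Cdkn1b as lower. There 3.09% of all rows passed as higher and 6.47% as lower. Leaving out at least 1 array ended all these calls but those on E2f7, Rbl2 and Cdkn1b.

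Genes of G2 and mitosis mostly lay on the other side of 0 from the helicase genes at 6 h. Of 26 measured, 0 passed between KO and WT at 6 h in limma. Of these, 23 lay below 0 with a median of -0.26, beside 0.007 over all rows, while 8 of the 10 replication genes lay above 0. The list means were -0.27 ± 0.12 in KO and -0.03 ± 0.22 in WT at 6 h (SD, n = 3 each). Their arrays overlapped, with -0.41 to -0.17 in KO and -0.29 to 0.13 in WT. In the difference between the 6 h responses 25 of 26 lay below 0 with a median of -0.22, and 0 passed. By 24 h in KO 9 of them had risen against 0 h (median of the list 0.30 beside 0.02 over all rows, of which 3.09% passed as higher), among them Plk1 by 1.16, Cdk1 by 0.97 and Cenpa by 0.51, and Ttk fell by 0.58. The calls on Ttk and Aurkb were each lost without any 1 of the 6 arrays, that on Ccnb2 in 4 of these 6 fits, on Ube2c in 3 and on Foxm1 in 2.

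**Figure D4:**
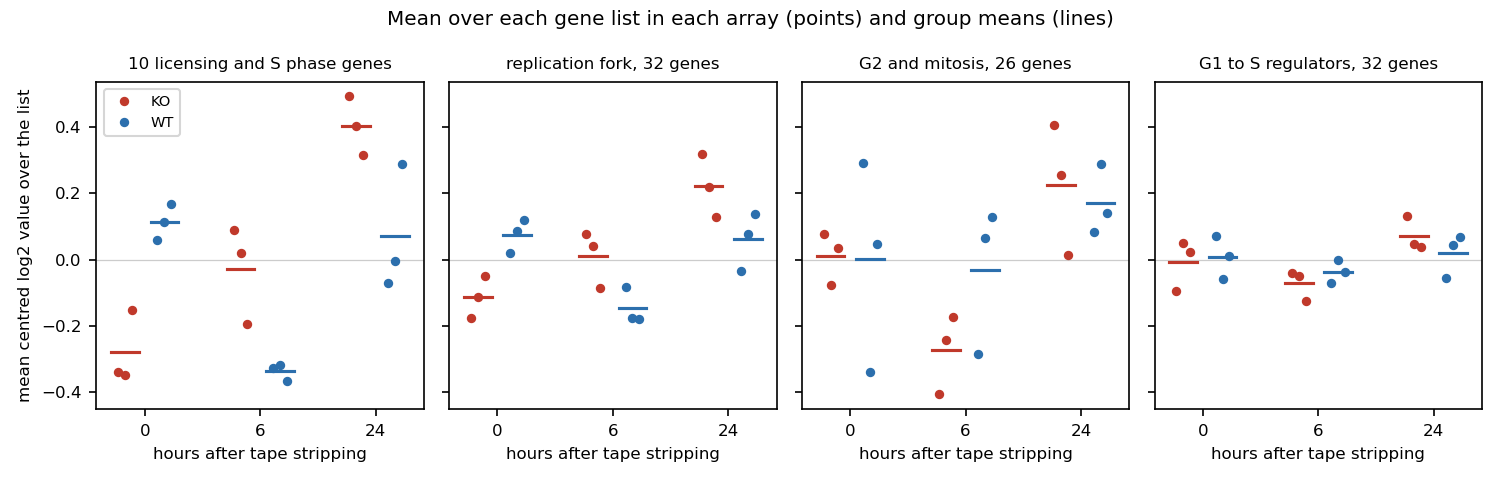
Mean centred log2 value over each gene list (vertical axis, 1 point per array) against hours after tape stripping (horizontal axis), KO left of WT, with a line at each group's mean of 3 arrays, for the 10 genes, the fork, G2 and mitosis, and G1 to S lists. At 6 h the KO points of the 10 replication genes lie above all WT points, and the KO points of the mitotic list average -0.27 beside -0.03 in WT. The mitotic points of the genotypes overlap at 6 h, with KO from -0.41 to -0.17 and WT from -0.29 to 0.13.

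Each sample's description holds a 4-digit number of unstated meaning, and arrays were parted at 3000 as a possible batch, the number class named above. Numbers below 3000 belonged to 1 KO and 2 WT arrays at 0 h and to 2 KO and 2 WT arrays at 6 h, and the other arrays were in the higher class. Within the lower class the difference between the 6 h responses was 1.30 for Mcm2, 1.62 for Mcm5, 1.04 for Mcm3, 0.91 for Mcm6 and 0.71 for Clspn. Within the higher class it was 0.98, 0.99, 1.15, 0.59 and 0.61 for the same genes. The median of the 10 genes between KO and WT was -0.48 in the lower class and -0.30 in the higher class at 0 h, and 0.30 and 0.40 at 6 h. The difference between 24 h and 0 h in KO was 1.01 for Mcm2, 1.13 for Mcm5 and 0.94 for Rrm2 within the higher class, which holds all 24 h arrays. With 1 or 2 arrays in most groups of a class, these are values without a test.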

How the data were processed

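RNA of 18 epidermal samples was measured on Affymetrix whole-transcript arrays, as the labels' protocols describe. The authors deposited 1 table of 33793 rows, whose values (-6.4 to 4.3) were read as log2. Each row's median over the arrays is 0 within 1e-06 in 100% of rows. Background correction, normalisation and software were not given in the sources used here. The medians of the arrays lay between -0.0187 and 0.0107, with SDs of 0.134 to 0.222. The number of arrays limits the precision.

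The platform's probe table gave 1 symbol for 23521 rows, several for 1814 and none for 8458, and only the first entered the tests. For a gene with several rows the row of largest SD was used. limma 3.58.1 in R 4.3.3 fitted 6 group means over 18 arrays (12 residual and 2.76 prior degrees of freedom), with 2-sided moderated tests of 15 comparisons and Benjamini-Hochberg adjustment over 23521 rows; the fit was tested on simulated data. With 3 arrays against 3, no permutation test of 1 gene can pass, so none was run.

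All 10 genes were tested in every comparison, but not each is named in each, and some comparisons are given by counts and medians only. From 18 other lists (223 genes, 214 measured) the rule names at most 4 members that passed per comparison, by smallest p, and adds Ahr and the 8 rows most like the mean of the 10. A few further members that passed were named after their values were seen. The members and lists were chosen with earlier results of these data known. Replicate numbers come from the titles; in 0 of 9 comparisons did every same-numbered pair correlate over 0.1 (r from -0.458 to 0.251), so they were not treated as pairs. There were 10 other settings and 18 single arrays left out. Natural logs, among these settings, rescale every row alike and cannot change a call, yet they count in each tally of alternatives.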

Additional observations from a re-analysis of the deposited data

Results flagged for a closer look

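Genes are given here because the difference between the genotypes in their 6 h response was itself tested and passed (limma, adjusted p under 0.05). The response of KO minus that of WT between 6 h and 0 h was 1.13 for Mcm2, 1.07 for Mcm3, 1.30 for Mcm5, 0.76 for Mcm6 and 0.69 for Clspn. In each of these 5 genes the mean response was above 0 in KO and below 0 in WT. Of these responses within a genotype, that of Mcm2 in KO alone passed. Over 21 alternatives the difference passed in 15 for Mcm2, 10 for Clspn, 9 for Mcm3, 6 for Mcm6 and 5 for Mcm5. Beside them stood Dut at 0.76, Cdkn1b at -1.06 and Rbl2 at -0.76, of which Dut passed in 12, Rbl2 in 11 and Cdkn1b in 9 of the 21 alternatives. Calml3, a marker of the spinous layer, had -0.73 and passed in 19.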

How the results depend on the processing

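Over 10 other settings and 18 arrays left out in turn, the 10 genes gave 2760 values beside the main ones. Of these, 2524 kept their sign and their side of the threshold, 146 were no longer called, 21 became called, 69 uncalled values changed sign and 0 called values did. Natural logs rescale every row alike and cannot move a sign or a call, and the other row of Rrm2 cannot move any other gene. Those values were bound to be among the 2524. The counts of genes passed that changed most were these, and the cause of the changes was not tested. Between KO and WT, 2 passed with array weights at 0 h. At 6 h (main count 1), 3 passed after a second quantile normalisation, 2 with array weights, 2 with the number class as a block and 0 when only those groups were fitted. Between 6 h and 0 h in KO (1), 0 passed in a fit of those groups alone. Between 24 h and 6 h in KO (1), 0 passed after quantile normalisation, in the groups alone, with the number class as a block or with the other row of Rrm2, and 2 with array weights. In the difference between the 6 h responses (5), 1 passed with all rows tested, 1 with limma's trend and robust options, 1 in the groups alone and 2 with the replicate block. That between 24 h and 0 h (0) gave 1 with array weights. The average between 24 h and 6 h (6) gave 3 in the groups alone and 0 with the number class as a block.

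With single arrays left out, the counts ran from 0 to 2 for KO against WT at 6 h, 0 to 1 for 6 h against 0 h in KO, 6 to 7 for 24 h against 0 h in KO, 0 to 4 for 24 h against 6 h in KO, 0 to 6 for the difference in the 6 h response, 0 to 1 for that in the 24 h response, 4 to 5 and 2 to 6 for the averages of 24 h against 0 h and against 6 h, and stayed at 0 for the rest. Outside the difference in the 6 h response, where 2 of 10 passed, the replicate block moved no count of genes passed by more than 1.5 times. Genes of the other lists that passed gave 3459 values, of which 2648 stayed called, 811 did not and 0 changed sign. The natural-log values among them were bound to stay called. Shifting arrays to 1 median moved no count by over 1.5 times, and taking natural logs could not move any. Signal over background could not be assessed from centred values.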
